A study of Oryza sativa with 18 samples.

Results

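The loci described here were those annotated as APETALA2/ethylene response factor (AP2/ERF) transcription factors in a gene table from rice (Oryza sativa ssp. japonica cv. Nipponbare) roots and shoots under changing zinc (Zn) supply. They were the loci whose Description names ERF, AP2, DREB or an ethylene-responsive element or factor, and they numbered 62 of 34716 loci (0.179%). The word match also took in 2 loci described as the peptide chain release factor eRF1 and 1 described as a transcriptional coactivator, and 59 loci remained without them. Poly(A) RNA was sequenced from 18 libraries, each a pool of 3 seedlings of the wild-type cultivar, with 3 libraries in each of 6 groups. Roots and shoots (leaf and stem) of plants kept at 1.5 µM ZnSO4 (+Zn) formed groups ZPR and ZPS, those of plants without Zn for 2 weeks (-Zn) ZMR and ZMS, and those of plants given back 1.5 µM ZnSO4 for 3 days after -Zn (Zn resupply) ZRR and ZRS. All plants carry the label 4 week old, and the labels give no other treatment. Resupply cannot be told apart from the added days of growth, and in whole organs fewer cells of a type and less RNA per cell cannot be told apart. Values are transcript levels scaled to length and depth (FPKM), and the 3 values of a group follow replicates 1, 2 and 3. The study calls the libraries of a group biological replicates, how apart their pools were grown is not given in the sources used here, and p-values measure only the spread between these pools.

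AP2/ERF proteins are plant transcription factors that share the AP2 DNA-binding domain. The AP2 type acts mainly in floral and organ development, the ERF type often binds GCC-box promoters downstream of the gas hormone ethylene, the DREB type binds dehydration-responsive elements under drought and cold, and the RAV type carries a B3 domain as well. In rice they are known for spikelet form, starch synthesis, submergence tolerance and drought responses of roots. By Description, 4 loci were of DREB type, 1 was of RAV type (Os01g0141000), and 18 carried only the domain name pathogenesis-related transcriptional factor and ERF. The tables give identifiers from the Rice Annotation Project and Descriptions, and the loci are called by these identifiers, with their roles as the Descriptions give them. A further 25 loci with related wording fell outside the word match and were not counted, among them an APETALA2-like gene, Os03g0818800. Many of the 25 were described as binding dehydration-responsive elements, such as Os09g0522200 and Os01g0165000, so the DREB type was covered only in part.

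The organ labels matched their marker genes in every library. Loci for chlorophyll-binding proteins and the Rubisco small subunit (15 loci) summed to 159 to 297 FPKM in roots and 6107 to 10520 FPKM in shoots. The sum of 8 root marker loci was 830 to 2622 FPKM in roots and 7.66 to 30.0 FPKM in shoots, where 4 of the 8 were listed at 0 in every library. Those 4 were also listed at 0 in most root libraries. The root sums came mainly from Os02g0745100, Os03g0107300 and Os07g0257200. Depth, read as coverage per FPKM, ranged between 3.67 (ZRR replicate 3) and 7.75 reads per base, so that a level of 0.5 FPKM stood for 1.83 to 3.88 reads per base. In ZRS replicate 1, transcripts with the assembler's codes for intronic, intergenic or pre-mRNA-like sequence held 16.8% of the summed transcript FPKM, against at most 5.14% in the other libraries.

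Most of these loci were low. Of the 62, 29 never exceeded 1 FPKM in a library, and 22 averaged at least 1 FPKM in roots against 12 in shoots. A level of at least 10 FPKM was reached by 7 loci in roots and 4 in shoots. Between 29 and 37 of the loci were above 0 in a root library, and between 31 and 39 in a shoot library. Summed over the 62 loci, the level was 282.4 to 469.1 FPKM in roots (median 431.6) and 183.7 to 269.1 FPKM in shoots (median 245.7). The 3 loci of highest mean, Os06g0194000, Os05g0121600 and Os03g0183300, together made up 64.6 to 75.7% of that sum in roots and 71.2 to 86.7% in shoots. The sums of the organs did not overlap, and without Os03g0183300, which was listed at 0 in some libraries of both tissues, they were 282.4 to 373.8 FPKM in roots and 149.7 to 263.6 FPKM in shoots.

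Os06g0194000 (chr6:4731330-4733911 on the plus strand of IRGSP-1.0), described as similar to the tobacco ethylene-responsive factor NtERF5, had the highest mean of the 62 loci in both tissues. Its root libraries held 109.9, 128 and 108.9 FPKM in ZPR, 99.4, 125.8 and 133 FPKM in ZMR and 99.1, 109.6 and 81.3 FPKM in ZRR. Its shoot libraries held 92.3, 132.8 and 103.7 FPKM in ZPS, 103.3, 114.2 and 118.4 FPKM in ZMS and 65.3, 96 and 74.9 FPKM in ZRS. The organs overlapped at each supply, and the log2 fold change of roots over shoots was 0.09 ± 0.19 (SE) at +Zn.

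Os05g0121600 (chr5:1155948-1160305, minus strand), described as an AP2/EREBP factor of starch biosynthesis, was the next most abundant. It had 112, 108.3 and 115.3 FPKM in ZPR, 92.4, 87.6 and 117.1 FPKM in ZMR and 99.8, 103.3 and 101 FPKM in ZRR, against 61.6, 67.3 and 50.4 FPKM in ZPS, 69.7, 51 and 48.1 FPKM in ZMS and 54.8, 60.7 and 87.9 FPKM in ZRS. Every root value was above every shoot value at the same supply. The log2 fold change was 0.91 ± 0.20 (SE; adjusted p = 0.00161) at +Zn, 0.82 ± 0.20 (SE; adjusted p = 0.00365) at -Zn and 0.61 ± 0.20 (SE; adjusted p = 0.0179) at resupply, under the fold threshold of 1 used for a call at each supply.

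Os03g0183300 (chr3:4372266-4373458, minus strand; described as similar to BTH-induced ERF factor 4) was read at high levels or not at all. Root values were 95.2, 0 and 99.2 FPKM in ZPR, 87.3, 123.7 and 89.1 FPKM in ZMR and 111.5, 92.2 and 0 FPKM in ZRR, and shoot values were 52.3, 0 and 44.6 FPKM in ZPS, 36.7, 59.1 and 0 FPKM in ZMS and 34, 0 and 66.7 FPKM in ZRS. Among its nonzero values the roots lay between 87.3 and 123.7 FPKM and the shoots between 34.0 and 66.7 FPKM, without overlap, while 5 of the 18 libraries were listed at 0. Nearly all of the level was assigned to a transcript annotated with 1 exon. It lies close to Os03g0182800 on chromosome 3. The eRF1 locus Os03g0702800, a translation termination factor that the word match took in, averaged 19.6 FPKM in roots and 8.24 FPKM in shoots.

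Os05g0389000 (chr5:18812181-18817752, plus strand), described as controlling organ size and cell proliferation in the root meristem, had the fourth highest mean in shoots. It had 6.93, 7.15 and 6.74 FPKM in ZPR, 7.72, 5.41 and 6.44 FPKM in ZMR and 5.19, 8.84 and 15.6 FPKM in ZRR, against 6.35, 12.4 and 12.1 FPKM in ZPS, 11.6, 12.1 and 12.4 FPKM in ZMS and 4.78, 18.7 and 4.94 FPKM in ZRS. Roots and shoots overlapped at +Zn and at resupply and not at -Zn, where shoots were higher, and no supply gave a call (log2 fold change -0.85 ± 0.44 (SE; adjusted p = 0.131) at -Zn). Of the 5 loci of highest mean in roots, 4 were also among the 5 highest in shoots. The fifth in roots was Os03g0182800, described with the loci higher in roots.

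**Figure D1:**
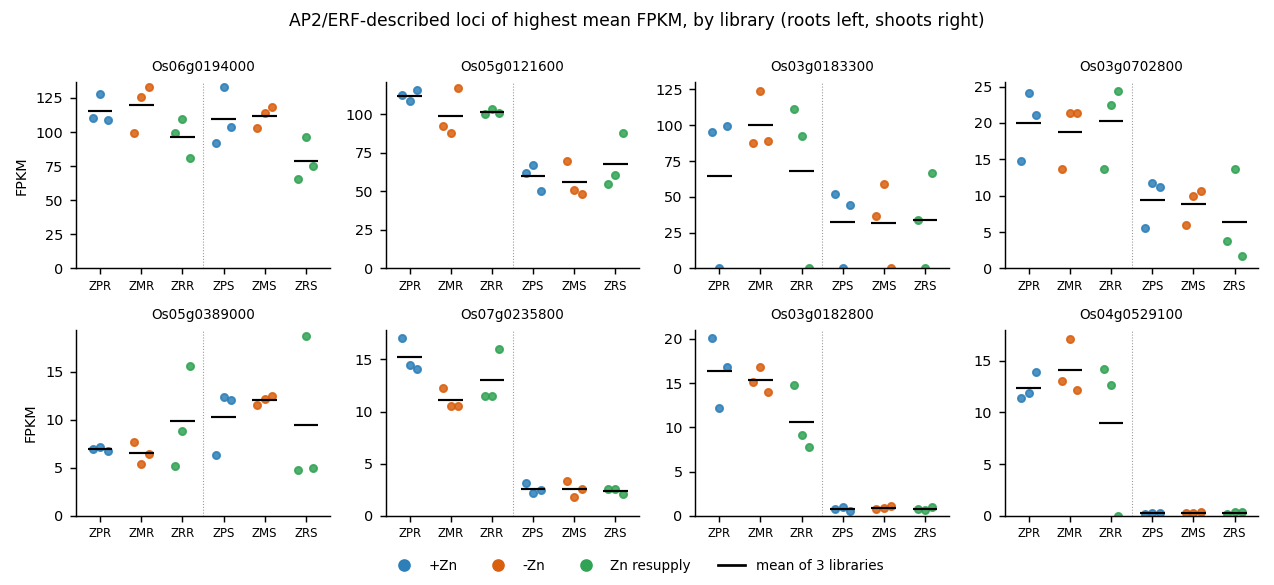
FPKM (vertical axis, linear from 0) of the 8 AP2/ERF-described loci of highest mean, by library, for root groups on the left and shoot groups on the right of each panel; points are libraries and bars are means of 3. Os06g0194000 sat between 65.3 and 133.0 FPKM in all 18 libraries, whereas Os03g0183300 was listed at 0 in 5 of them and Os03g0182800 sat between 7.76 and 20.1 FPKM in roots and between 0.60 and 1.06 FPKM in shoots.

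The values at exact 0 need a description of their own, because they limit every comparison of these loci. There were 65 values at 0 whose group also held a value over 1 FPKM, and 16 of the 62 loci (25.8%) had such a value, against 10.1% of all loci. These 16 loci included 13 whose transcripts all had 1 exon, and these were all 13 one-exon loci that ever exceeded 1 FPKM. Over all loci the share was 31.4% for one-exon loci and 3.99% for loci with more exons. One-exon loci made up 33 of the 62 (53.2%), against 22.4% of all loci. Only 16 of the 62 (25.8%) were above 0 in all 18 libraries, against 58.9% of all loci. An exact 0 of this kind can be a failed estimate, so loci at 0 in a whole group are given by library and without a fold.

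By the rule for loci listed at 0 in a whole group and averaging at least 1 FPKM in another group of the same tissue, 8 loci were found, all of them with 1 exon and each with a further 0 inside every higher group. Os06g0166400, described as TINY-like, had 0, 0 and 0 FPKM in ZPR, 14.5, 7.55 and 0 FPKM in ZMR and 25.6, 0 and 0 FPKM in ZRR, and 0, 0 and 0 FPKM in ZPS, 0, 0 and 1.22 FPKM in ZMS and 3.21, 1.11 and 0 FPKM in ZRS. Os01g0141000, the RAV-type locus annotated to the salt stress response, had 0, 0 and 21.1 FPKM in ZPR, 0, 7.81 and 0 FPKM in ZMR and 0, 0 and 0 FPKM in ZRR, and 0, 13.8 and 0 FPKM in ZPS, 8.45, 0 and 12.8 FPKM in ZMS and 0, 7.47 and 0 FPKM in ZRS. Os06g0166400 was at 0 in every +Zn library of both organs and in part of the libraries of each other group. Os01g0141000 had no group with a level in all 3 libraries.

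Os03g0191900 had 0, 0 and 0 FPKM in ZPR, 11.3, 0 and 5.97 FPKM in ZMR and 0, 0 and 0 FPKM in ZRR, and between 0.17 and 0.64 FPKM in the 9 shoot libraries. It overlaps Os03g0191850 on the other strand by 575 bases, and without a stated strand reads of the overlap cannot be told apart. That neighbour held 0.55 to 4.30 FPKM in roots and at most 0.19 FPKM in shoots. Os04g0549700, described as similar to DREB1F of the cold- and drought-response class, had 14.3, 0 and 0 FPKM in ZPR and 14.5, 0 and 0 FPKM in ZMR, and was listed at 0 in ZRR and in all shoots. Both of its libraries above 0 were replicate 1. Os04g0546800 had 0, 0 and 0 FPKM in ZPR, 0, 3.52 and 2.41 FPKM in ZMR and 0, 0 and 1.65 FPKM in ZRR, and 0, 2.73 and 2.68 FPKM in ZPS, 0, 2.49 and 2.77 FPKM in ZMS and 0, 0 and 3.4 FPKM in ZRS, with replicate 1 listed at 0 in every group.

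Os08g0408500, described by its ERF domain alone, had 0, 9.87 and 9.42 FPKM in ZPR, 0, 13.8 and 10.2 FPKM in ZMR and 0, 15.5 and 0 FPKM in ZRR, and 0, 0 and 0 FPKM in ZPS, 0, 3.1 and 0 FPKM in ZMS and 0, 3.49 and 3.97 FPKM in ZRS. Replicate 1 was listed at 0 in all 6 groups. The other 2 loci under the rule were Os01g0693400, with 5.66 FPKM in ZPR replicate 1, 4.24 FPKM in ZMS replicate 3 and 0.38 FPKM in ZRS replicate 3, and Os02g0654700, with 3.9 FPKM in ZRR replicate 3 only. Os09g0457900, annotated to the regulation of internode elongation, did not exceed 0.05 FPKM in roots or 0.19 FPKM in shoots. The other DREB-described loci were low as well, with Os02g0797100 at 0.047 to 0.75 FPKM in roots and 0 to 0.11 FPKM in shoots, Os02g0676800 at 0 in roots and up to 0.26 FPKM in shoots, and Os08g0521600 at 0.055 FPKM in 1 root library and 0 elsewhere.

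**Figure D2:**
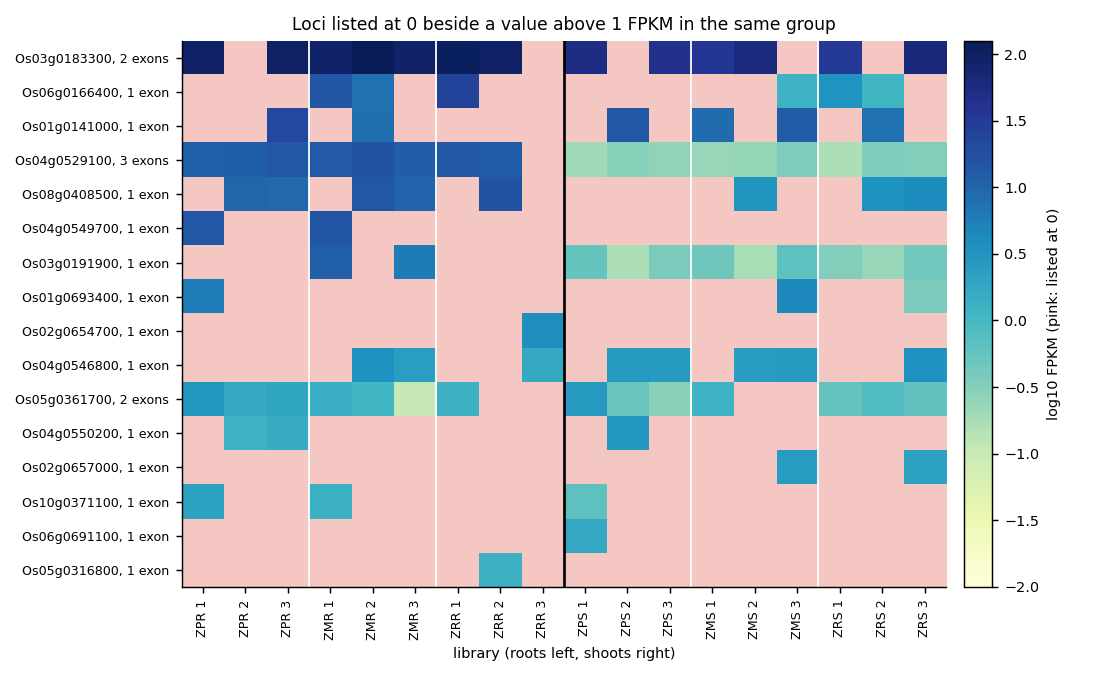
Heat map of log10 FPKM (colour scale) for the 16 loci (rows, with their exon number) with a value at 0 in a group that also reached over 1 FPKM, across the 18 libraries (columns, roots left and shoots right, groups divided by lines); pink marks a value listed at 0. All but 3 rows are one-exon loci, and 65 of the pink cells are of that kind.

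The comparison of roots with shoots asked which of these loci differed between the organs at each Zn supply. At +Zn, 8 loci were higher and 2 lower in ZPR than in ZPS, of 33 tested (those at 0.5 FPKM or more in at least 3 of the 18 libraries). Over all 24431 loci tested, 20.5% were called higher and 13.5% lower (34.1% in all), by limma with Benjamini-Hochberg adjusted p up to 0.05 and a log2 fold change of 1 or more in size. At -Zn 9 were higher and 1 lower in ZMR than in ZMS (18.5% and 13.4% of all loci, 31.9% in all), and at resupply 9 were higher and 1 lower in ZRR than in ZRS (27.6% and 11.8%, 39.4% in all). At each supply 30.3% of the 33 loci were called, beside the shares of all loci just given. With 33 loci these shares are not read as different, and no difference was tested. The median log2 fold change of the 33 was 0.67, 0.75 and 0.37 at +Zn, -Zn and resupply, beside 0.38, 0.36 and 0.58 for all loci. Groups did not overlap for 18, 19 and 16 of the 33 loci, against 60.6%, 60.4% and 53.8% of all loci.

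That background depended on the scaling between organs. With quantile normalization the median of all loci was 0.14, 0.14 and 0.16, and with median ratio scaling 0.04, 0.04 and 0.05, against 0.38, 0.36 and 0.58 in the deposited FPKM. The share of calls over all loci that were higher in roots was 60.2% at +Zn as deposited, 48.3% with quantile normalization and 44.4% with median ratio scaling. For the 33 loci the count higher and lower was 8 and 2 as deposited and 6 and 2 under both other scalings at +Zn, and at resupply 9 and 1 as deposited and 8 and 2 under both. At -Zn it was 9 and 1 as deposited, 8 and 3 with quantile normalization and 7 and 3 with median ratio scaling. Relative to the median of all loci, 19, 20 and 16 of the 33 lay above it at the 3 supplies as deposited. Of the 33 loci, 10 had passed the filter on low values through roots only and 5 through shoots only, so the filter itself favoured a difference for them. Those of roots only made up 5 of the 8 loci higher at +Zn, 6 of the 9 at -Zn and 5 of the 9 at resupply. Among the loci named next they are Os01g0899800, Os10g0390800, Os04g0529100, Os12g0126300, Os06g0658000, Os03g0341000 and Os09g0287000, while Os12g0603300, lower in roots, had passed through shoots only. The counts are given as a description. Without the eRF1 loci 8 rather than 9 loci were higher at resupply, and the other counts were as given. Without ZRS replicate 1, 7 loci were higher at resupply, the calls of Os04g0529100 and Os09g0287000 being lost.

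7 of the 33 loci were higher in roots at all 3 supplies, beside 14.7% of all loci tested. Os03g0182800 (chr3:4343688-4345878, minus strand), described as similar to the ethylene responsive element binding factor OsERF3, had the smallest p of the 33 at each supply. It had 20.1, 12.2 and 16.8 FPKM in ZPR, 15.2, 16.8 and 14 FPKM in ZMR and 14.8, 9.14 and 7.76 FPKM in ZRR, against 0.73, 0.99 and 0.6 FPKM in ZPS, 0.76, 0.91 and 1.06 FPKM in ZMS and 0.79, 0.64 and 0.95 FPKM in ZRS. The lowest root library was thus well above the highest shoot library. The log2 fold change of FPKM + 0.5 was 3.71 ± 0.23 (SE; adjusted p = 6.14e-09) at +Zn, 3.49 ± 0.23 (SE; adjusted p = 1.22e-08) at -Zn and 3.05 ± 0.23 (SE; adjusted p = 5.55e-08) at resupply. Its annotated 3-exon transcript carried most of the level.

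Os07g0235800 (chr7:7545343-7550344, plus strand), an AP2 domain factor annotated to inflorescence architecture and the founding of floral meristems, was likewise higher in roots. It had 17.1, 14.5 and 14.1 FPKM in ZPR, 12.3, 10.6 and 10.5 FPKM in ZMR and 11.5, 11.5 and 16 FPKM in ZRR, against 3.12, 2.2 and 2.43 FPKM in ZPS, 3.3, 1.76 and 2.55 FPKM in ZMS and 2.57, 2.58 and 2.06 FPKM in ZRS. The highest shoot library, ZMS replicate 1, was below the lowest root library, ZMR replicate 3. The log2 fold change was 2.36 ± 0.20 (SE; adjusted p = 1.56e-07) at +Zn, 1.96 ± 0.20 (SE; adjusted p = 1.16e-06) at -Zn and 2.20 ± 0.20 (SE; adjusted p = 3.68e-07) at resupply.

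Os01g0899800, an ERF-domain locus, had 5.54, 2.46 and 2.16 FPKM in ZPR, 4.99, 2.64 and 1.32 FPKM in ZMR and 3.58, 3.71 and 6.32 FPKM in ZRR, against 0 to 0.044 FPKM in shoots. Root and shoot values were apart at each supply, with a log2 fold change of 2.84 ± 0.36 (SE; adjusted p = 1.14e-05) at +Zn. Os10g0390800, described as similar to ERF3 of Arabidopsis, had 30.4, 1.18 and 9.15 FPKM in ZPR, 4.73, 1.81 and 12.4 FPKM in ZMR and 5.54, 3.79 and 3.9 FPKM in ZRR, against 0 to 0.37 FPKM in shoots. Its root pools differed widely, and ZPR replicates 1 and 2 lay further apart than any other 2 root libraries of this locus. Its log2 fold change was 3.61 ± 0.77 (SE; adjusted p = 0.00134) at +Zn.

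Os04g0529100 (chr4:26436986-26440844, minus strand) had 11.4, 11.8 and 13.9 FPKM in ZPR, 13.1, 17.2 and 12.2 FPKM in ZMR and 14.2, 12.7 and 0 FPKM in ZRR, against 0.16 to 0.35 FPKM in shoots. All root libraries but ZRR replicate 3, which was listed at 0, were above the shoots. The log2 fold change was 4.09 ± 0.86 (SE; adjusted p = 0.00114) at +Zn, 4.22 ± 0.86 (SE; adjusted p = 9.02e-04) at -Zn and 2.57 ± 0.86 (SE; adjusted p = 0.0193) at resupply, where the groups overlapped through that library. The resupply call was lost in 5 of 27 alternatives, among them those without ZRS replicate 1, ZRR replicate 1 or ZRR replicate 2. With only the 6 libraries compared the locus did not pass the filter at resupply and was not tested, which was counted as a loss. The annotated transcript did not exceed 0.093 FPKM in any library, and the level came from 3 assembled transcripts that overlap it, one of them unspliced. Whether these belong to the AP2/ERF gene was not tested.

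Os11g0129700 and Os12g0126300, described as AP2-1 and AP2 domain proteins, lie near the start of chromosomes 11 and 12, which share a duplicated segment in rice, and the alignment allowed reads to match more than 1 place. Os11g0129700 had 3.27, 2.87 and 2.34 FPKM in ZPR, 4.12, 2.18 and 2.53 FPKM in ZMR and 2.59, 1.74 and 4.18 FPKM in ZRR, against 0.26 to 1.13 FPKM in shoots. Os12g0126300 had 1.61, 1.29 and 1.32 FPKM in ZPR, 1.66, 0.98 and 0.53 FPKM in ZMR and 1.51, 1.71 and 1.23 FPKM in ZRR, against 0.09 to 0.37 FPKM in shoots. All 9 root libraries were above all 9 shoot libraries for both. Their log2 fold changes at +Zn were 1.24 ± 0.29 (SE; adjusted p = 0.00266) for Os11g0129700 and 1.46 ± 0.25 (SE; adjusted p = 1.95e-04) for Os12g0126300. At +Zn, Os11g0129700 fell short of the fold threshold with quantile normalization (0.98), median ratio scaling (0.91) and a pseudocount of 1 FPKM. At -Zn, where the log2 fold change of Os12g0126300 was 1.06 ± 0.25 (SE; adjusted p = 0.00286), its call was lost under both other scalings, with a pseudocount of 1 FPKM, without ZMS replicate 3 and without ZMR replicate 1. Each overlaps a gene on the other strand by 989 and 943 bases in turn, Os11g0129600 (5.52 to 9.94 FPKM in roots and 3.0 to 4.65 FPKM in shoots) and Os12g0126200 (6.15 to 21.5 FPKM in roots and 1.24 to 3.23 FPKM in shoots). The part of those neighbours in the values was not tested.

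The other loci higher in roots were called at 1 or 2 supplies. Os06g0658000, an AP2-EREBP fragment by Description, was low throughout, with 0.99, 0.18 and 0.55 FPKM in ZPR and 0, 0 and 0 FPKM in ZPS. With ZPS at 0 no fold is given. It passed both thresholds at +Zn (adjusted p = 0.00631) and -Zn (adjusted p = 0.00165). At +Zn it missed the fold threshold without ZPR replicate 1, with a pseudocount of 1 FPKM and under both other scalings. At -Zn it was not called in 4 of 27 alternatives, that without ZMR replicate 1 among them. With only the 6 libraries compared, or a filter of 1 FPKM in 3 libraries, it was not tested at either supply. Os03g0341000, similar to RAP2.2, which in Arabidopsis acts in the hypoxia response, had 1.18, 1.66 and 2.02 FPKM in ZPR, 6.31, 3.09 and 0.95 FPKM in ZMR and 6.13, 0.98 and 0.094 FPKM in ZRR, against 0.12 to 0.45 FPKM in shoots. It was called at -Zn only (log2 fold change 1.92 ± 0.66 SE, adjusted p = 0.0276), beside 1.40 at +Zn and 1.25 at resupply, but the call was lost without ZMR replicate 1 or 2, without any of the 3 ZMS replicates and with median ratio scaling. It was called at +Zn with only the 6 libraries compared and without ZRR replicate 1 or 3, and at resupply without ZRR replicate 3. The interaction of organ and supply was not called. In ZPR replicates 1 and 2 the annotated transcript of Os03g0341000 was listed at 0, and the level came from an unspliced assembled transcript. The eRF1 locus Os03g0702800 had 13.7, 22.5 and 24.4 FPKM in ZRR and 3.72, 13.6 and 1.77 FPKM in ZRS and was called at resupply only (1.97 ± 0.51 SE, adjusted p = 0.00472).

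Os09g0286600 (chr9:6387891-6389653), described by its ERF domain alone, and Os09g0287000 (chr9:6404450-6406189), described as similar to the Arabidopsis factor AtERF5, lie close together on the minus strand of chromosome 9. Os09g0287000 had 3.17, 3.09 and 0.23 FPKM in ZPR, 1.4, 1.0 and 1.21 FPKM in ZMR and 1.16, 0.22 and 2.25 FPKM in ZRR, against 0.29, 0.84 and 0.35 FPKM in ZPS, 0.19, 0.18 and 0.28 FPKM in ZMS and 0.07, 0.16 and 0.022 FPKM in ZRS. It was called higher in roots at resupply (1.35 ± 0.54 SE, adjusted p = 0.0446), beside 1.14 ± 0.54 (SE; adjusted p = 0.0956) at +Zn and 1.25 ± 0.54 (SE; adjusted p = 0.0724) at -Zn. The resupply call was lost in 19 of 27 alternatives, among them the replicate block, both other scalings, a pseudocount of 1 FPKM and no filter. It was also lost in 13 of the fits that left out a library. With the 6 libraries compared alone the locus did not pass the filter and was not tested, which was counted as a loss. Its annotated transcript was listed at 0 in all ZMR libraries, in ZPR replicate 3 and in ZRR replicates 1 and 2. The level there came from an unspliced assembled transcript. In ZRR replicate 3 the annotated transcript held 2.14 FPKM. Os09g0286600 had 1.24, 3.76 and 1.45 FPKM in ZPR, 4.94, 5.5 and 1.65 FPKM in ZMR and 3.89, 3.02 and 4.76 FPKM in ZRR, against 1.18, 1.64 and 2.25 FPKM in ZPS, 2.52, 2.78 and 2.89 FPKM in ZMS and 1.67, 1.39 and 2.72 FPKM in ZRS. Its organs overlapped at +Zn and -Zn and not at resupply, where roots were higher, and no supply gave a call.

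2 loci were lower in roots at some supply, 1 of them at all 3, beside 9.98% of all loci tested. Os12g0603300 (chr12:25405251-25418945, minus strand), an AP2 domain protein by Description, had 0.1, 0.039 and 0.17 FPKM in ZPR, 0.13, 0.076 and 0.087 FPKM in ZMR and 0.073, 0.091 and 0.2 FPKM in ZRR, against 1.64, 2.58 and 1.8 FPKM in ZPS, 2.52, 2.41 and 1.9 FPKM in ZMS and 0.76, 3.03 and 0.89 FPKM in ZRS. All shoot libraries were above all root libraries, and the log2 fold change was -2.04 ± 0.31 (SE; adjusted p = 6.24e-05) at +Zn, -2.21 ± 0.31 (SE; adjusted p = 3.04e-05) at -Zn and -1.57 ± 0.31 (SE; adjusted p = 6.55e-04) at resupply. The merged locus Os09g0423800/Os09g0423700 (chr9:15358367-15369640, plus strand), which joins a DnaJ heat shock domain gene to an AP2-1-like gene, had 2.99, 2.26 and 2.35 FPKM in ZPR, 3.81, 3.05 and 2.37 FPKM in ZMR and 4.98, 2.12 and 2.59 FPKM in ZRR, against 9.42, 6.4 and 6.51 FPKM in ZPS, 8.77, 4.52 and 5.4 FPKM in ZMS and 7.87, 4.93 and 6.82 FPKM in ZRS. It passed both thresholds at +Zn (-1.37 ± 0.30 SE, adjusted p = 0.00148) and only the adjusted p at -Zn (-0.88 ± 0.30 SE, adjusted p = 0.0257) and resupply (-0.97 ± 0.30 SE, adjusted p = 0.0128). Most of its level was in assembled transcripts with more exons than the annotated transcript of either gene, so the AP2-1-like gene was not measured on its own.

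Counted over all libraries, 8 of the 33 tested loci had every root library above every shoot library and 2 had the reverse, beside 23.6% and 12.2% of all tested loci, and none of the other 29 loci did either. The 8 were the loci named as higher at all supplies other than Os04g0529100, with Os06g0658000 and Os07g0575000, which held 0.22 to 0.69 FPKM in roots and 0 to 0.056 FPKM in shoots. The 2 with higher shoots were Os12g0603300 and Os05g0536250 (0.039 to 0.17 FPKM in roots, 0.22 to 0.88 FPKM in shoots). These 2 had passed the filter through shoots only. Os01g0899800, Os10g0390800, Os12g0126300, Os06g0658000 and Os07g0575000 had passed through roots only, so the filter favoured the separation for all of these loci. In all, 13 of the 33 loci were called at some supply, beside 47.6% of all loci tested. None of them was among the 8 tested one-exon loci, while the shares over all loci were 32.3% of one-exon loci and 49.5% of loci with 2 or more exons. In at least 1 alternative 7 of these 8 were called. With the replicate block they were Os08g0408500 (higher) and Os04g0546800 (lower) at +Zn and Os03g0191900 (higher) at -Zn.

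**Figure D3:**
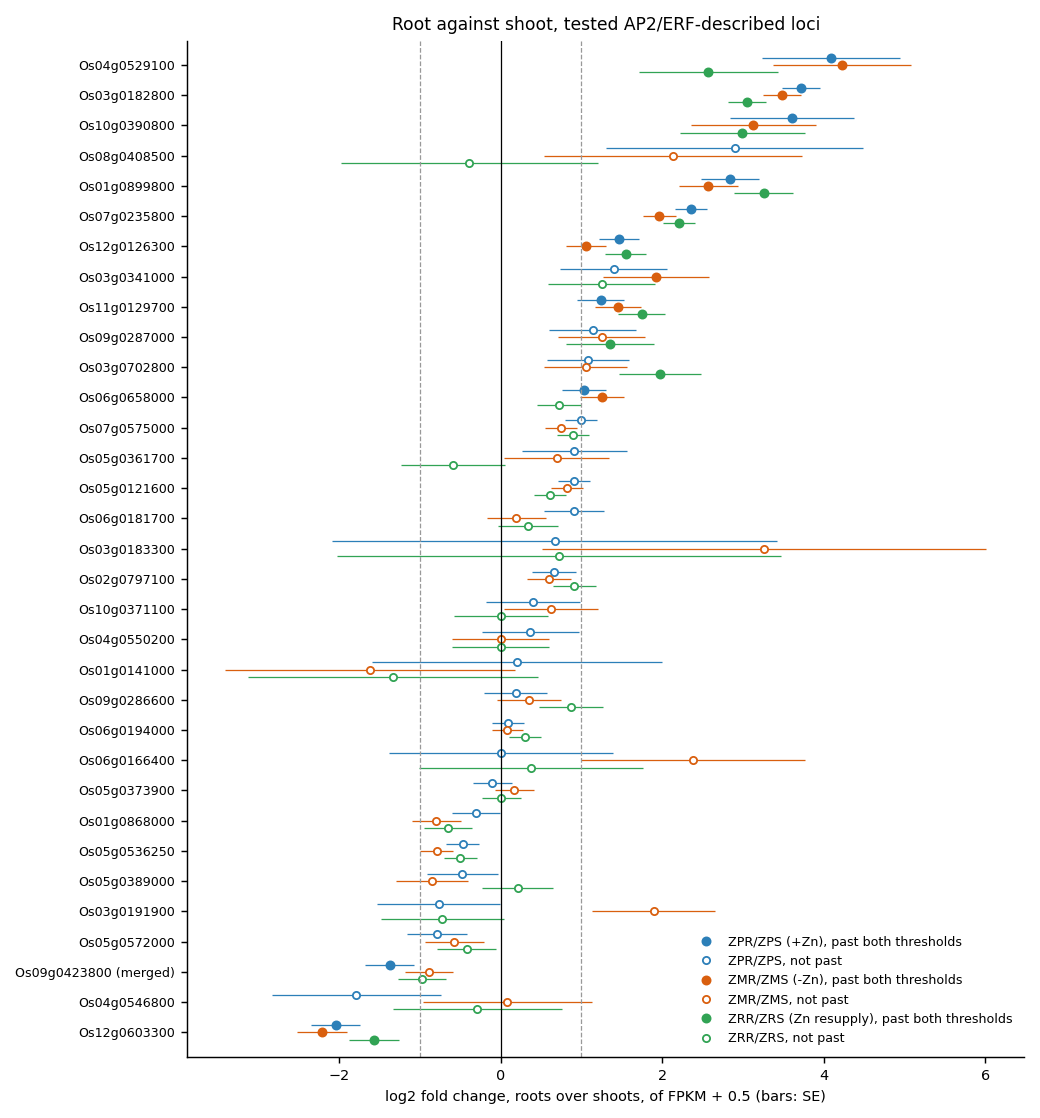
Log2 fold change of FPKM + 0.5, roots over shoots (horizontal axis), with its SE (bars), for the 33 tested AP2/ERF-described loci (rows) at +Zn (blue), -Zn (orange) and Zn resupply (green); filled points passed both thresholds and dashed lines mark a log2 fold change of 1 either way. 7 loci on the right and Os12g0603300 on the left are filled at all 3 supplies, while Os08g0408500 and Os03g0183300, listed at 0 in part of the libraries, have wide bars and open points. Where a group is listed at 0, as for Os06g0658000 in ZPS, the plotted value depends on the pseudocount.

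Within an organ, the comparisons across Zn supply asked which loci changed with -Zn and which with resupply. By limma, none of the 20 loci tested in shoots and none of the 25 tested in roots (0.5 FPKM or more in at least 3 of the 9 libraries of the organ) passed the thresholds in any of the 6 comparisons. Calls were few among all loci too, with 18 of 20512 (0.0878%) for ZMS/ZPS, 14 (0.0683%) for ZRS/ZMS and 5 (0.0244%) for ZRS/ZPS in shoots. In roots they were 10 of 21717 (0.046%) for ZMR/ZPR, 27 (0.124%) for ZRR/ZMR and 5 (0.023%) for ZRR/ZPR. Groups did not overlap for 1, 1 and 0 of the 20 shoot loci, beside 6.5%, 10.1% and 8.43% of all loci, and for 3, 0 and 2 of the 25 root loci, beside 9.23%, 7.61% and 8.34%. At an unadjusted p under 0.05 there were 0, 1 and 0 of the 20 loci in the 3 shoot comparisons (1.68%, 5.84% and 4.14% of all loci) and 1, 0 and 2 of the 25 in the 3 root comparisons (3.56%, 3.51% and 4.41%). Os03g0191900, at 0.5 FPKM or more in only 2 root libraries, was not among the 25. Without the filter its unadjusted p was 0.026 for ZMR/ZPR and for ZRR/ZMR, with adjusted p of 1 and 0.969 by limma, and no fold is given since ZPR and ZRR are listed at 0. The study also measured this locus by qRT-PCR, which is not used here. The comparisons within an organ share libraries, and each value stands for its own contrast. The median log2 fold change of the tested AP2/ERF-described loci was 0.01, -0.16 and -0.13 in shoots and -0.07 in each root comparison, beside 0.03, -0.19 and -0.16 for all shoot loci and 0.00, 0.07 and 0.08 for all root loci.

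In roots, Os07g0235800 had the smallest p of the 25 loci for -Zn. It averaged 11.1 ± 1.01 FPKM in ZMR and 15.2 ± 1.61 FPKM in ZPR (SD, n = 3 each), and the highest ZMR value (12.3 FPKM) was below the lowest ZPR value (14.1 FPKM). The log2 fold change was -0.44 ± 0.17 (SE) with an unadjusted p of 0.0323 and an adjusted p of 1 by limma. Os05g0361700, similar to ethylene responsive element binding protein 2, had 1.39, 1.11 and 0.11 FPKM in ZMR and 2.97, 1.57 and 1.9 FPKM in ZPR (log2 fold change -1.07 ± 0.60 SE, adjusted p = 1). Os04g0546800 was listed at 0 in all ZPR libraries and in ZMR replicate 1, and its fitted difference was not called (adjusted p = 1). The third locus whose groups did not overlap was the eRF1 locus Os05g0373900, with 0.73, 0.57 and 0.52 FPKM in ZMR and 0.44, 0.49 and 0.37 FPKM in ZPR.

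After resupply, Os03g0182800 averaged 10.6 ± 3.71 FPKM in ZRR and 16.4 ± 3.96 FPKM in ZPR (SD, n = 3 each), with a log2 fold change of -0.63 ± 0.26 (SE; adjusted p = 0.942). Against ZMR, at 15.3 ± 1.4 FPKM, it was -0.56 ± 0.26 (SE; adjusted p = 0.983), and ZRR overlapped both other groups. Os05g0361700 was listed at 0 in 2 ZRR libraries and held 1.3 FPKM in the other, against 2.97, 1.57 and 1.9 FPKM in ZPR, and its fitted log2 fold change was -1.75 ± 0.60 (SE; adjusted p = 0.942). Os09g0286600 had 3.89, 3.02 and 4.76 FPKM in ZRR and 1.24, 3.76 and 1.45 FPKM in ZPR, which overlapped (0.83 ± 0.47 SE, adjusted p = 0.942). Every ZRR library of Os05g0121600 was below every ZPR library, with a log2 fold change of -0.14 ± 0.15 (SE; adjusted p = 0.942). For ZRR over ZMR, Os06g0194000 was -0.30 ± 0.18 (SE; adjusted p = 0.983) and Os06g0658000 was -0.56 ± 0.36 (SE; adjusted p = 0.983). Neither had groups that were apart.

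In shoots, Os06g0194000 was the locus with an unadjusted p under 0.05. It had 65.3, 96 and 74.9 FPKM in ZRS and 103.3, 114.2 and 118.4 FPKM in ZMS, and these groups did not overlap. The log2 fold change was -0.52 ± 0.21 (SE; adjusted p = 0.829), while the median of all shoot loci in this comparison was itself -0.19. Against ZPS (92.3, 132.8 and 103.7 FPKM) it was -0.48 ± 0.21 (SE; adjusted p = 0.983), with overlapping groups. Os09g0286600 had 2.52, 2.78 and 2.89 FPKM in ZMS and 1.18, 1.64 and 2.25 FPKM in ZPS, without overlap, and its log2 fold change was 0.59 ± 0.27 (SE; adjusted p = 1) for ZMS over ZPS and -0.45 ± 0.27 (SE; adjusted p = 0.876) for ZRS over ZMS. Os12g0603300 had 0.76, 3.03 and 0.89 FPKM in ZRS and 2.52, 2.41 and 1.9 FPKM in ZMS, which overlapped (-0.59 ± 0.39 SE, adjusted p = 0.881).

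The remaining shoot loci of small p were low or partly listed at 0. Os05g0361700 had 1.25, 0 and 0 FPKM in ZMS and 2.76, 0.51 and 0.28 FPKM in ZPS, with a log2 fold change of -0.85 ± 0.63 (SE; adjusted p = 1) that turned to 0.35 where zeros beside a value above 1 FPKM were taken as missing. Os05g0536250 had 0.88, 0.52 and 0.35 FPKM in ZMS and 0.39, 0.3 and 0.4 FPKM in ZPS (0.30 ± 0.27 SE, adjusted p = 1). Os08g0408500 and Os06g0166400 were at 0 in all ZPS libraries and above 0 in 2 ZRS libraries each. The adjusted p for ZRS over ZPS was 0.983 for Os08g0408500 and 0.983 for Os06g0166400.

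Among the alternatives run, taking such zeros as missing gave the only calls in the Zn comparisons. Os08g0408500 was then called in ZMS/ZPS and ZRS/ZPS, Os04g0546800 and Os06g0166400 in ZMR/ZPR, and Os06g0166400 in ZRR/ZPR. This setting drops zeros from the group that holds a level and keeps those of a group listed at 0 throughout, so by construction it widens these differences.

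Whether the response to Zn differed between the organs was tested as an interaction in the fit of all 18 libraries. None of the 33 loci was called by limma for the response to -Zn or for that to resupply (0.0655% and 0.106% of all loci), and 1 locus in each had an unadjusted p under 0.05 (2.89% and 5.34% of all loci). Both times it was Os03g0191900, with an interaction of 2.66 ± 1.08 (SE; adjusted p = 1) for -Zn and -2.62 ± 1.08 (SE; adjusted p = 0.863) for resupply on the log2 scale. These fitted values depend on the pseudocount and rest on ZMR replicates 1 and 3 (11.3 and 5.97 FPKM), with ZMR replicate 2 and all ZPR and ZRR libraries listed at 0. Without ZMR replicate 2 the interactions of Os03g0191900 were called, at 4.03 (adjusted p = 5.97e-04) and -3.99 (adjusted p = 4.23e-04), so that the call turned on a library listed at 0. Over all alternatives the adjusted p ran between 1.46e-05 and 1 for -Zn and between 1.72e-05 and 1 for resupply. Next by p were, for -Zn, Os07g0235800 (-0.39 ± 0.28 SE, adjusted p = 1) and Os06g0181700 (-0.71 ± 0.52 SE, adjusted p = 1). For resupply they were Os05g0389000 (1.06 ± 0.62 SE, adjusted p = 0.863) and Os12g0603300 (0.64 ± 0.44 SE, adjusted p = 0.863).

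**Figure D4:**
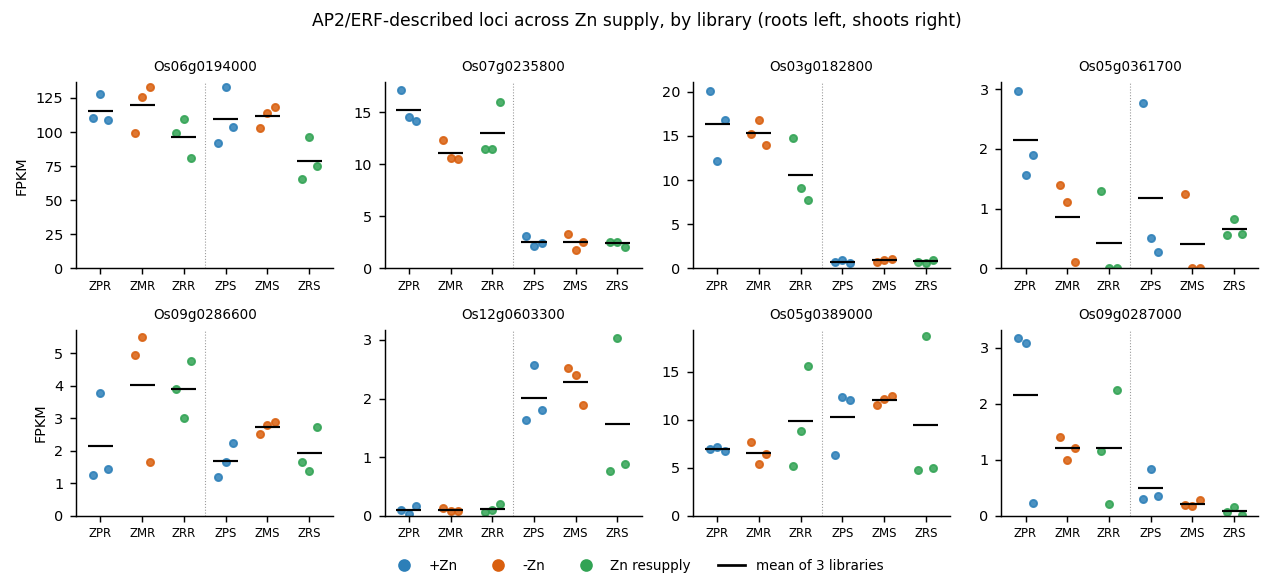
FPKM (vertical axis, linear from 0, scaled by panel) of 8 AP2/ERF-described loci named in the text, by library, with root groups left and shoot groups right of the dotted line; points are libraries and bars are means of 3. Os07g0235800 in ZMR (10.5 to 12.3 FPKM) lay below ZPR (14.1 to 17.1 FPKM) and Os06g0194000 in ZRS (65.3 to 96 FPKM) below ZMS (103.3 to 118.4 FPKM), while no locus shown passed both thresholds across Zn supply.

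The spread between pools bore on all of these values. The median SD of log2(FPKM + 0.5) within a group was 0.45 for the 25 AP2/ERF-described loci tested in roots, beside 0.35 for all tested root loci, and 0.44 for the 20 tested in shoots, beside 0.38. Loci with 2 or more exons had 0.43 in roots and 0.36 in shoots. One-exon loci had 2.43 in roots (3 loci) and 1.40 in shoots (5 loci).

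Genes that make and sense ethylene, the hormone upstream of many ERFs, were drawn by Description for context. Of 11 ethylene synthesis loci, all tested, 3 were higher and 2 lower in ZPR than in ZPS. The ACC oxidase Os11g0186900, which makes ethylene from ACC, averaged 47.8 ± 14 FPKM in ZPR and 0.29 ± 0.0853 FPKM in ZPS (SD, n = 3 each; log2 fold change 5.90 ± 0.25; adjusted p = 1.74e-10). The ACC synthase Os03g0727600 averaged 2.56 ± 0.581 FPKM in ZPR and 0.163 ± 0.0701 FPKM in ZPS, and Os01g0192900 8.91 ± 0.881 FPKM in ZPR and 1.25 ± 1.13 FPKM in ZPS. The ACC oxidase Os09g0451400 ran the other way with 0.406 ± 0.205 FPKM in ZPR and 7.05 ± 5.19 FPKM in ZPS. Os11g0186900 and Os03g0727600 had passed the filter on low values through roots only, which favoured a difference for them. The counts were 5 higher and 3 lower at -Zn and 4 and 2 at resupply, and 3 and 3, 3 and 3, and 2 and 3 at the 3 supplies with median ratio scaling. For every list, the shares of all loci tested that were higher were 20.5%, 18.5% and 27.6% at +Zn, -Zn and resupply. The shares lower were 13.5%, 13.4% and 11.8%.

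Among 12 loci of ethylene perception and signalling, 11 of them tested, 3 were higher and 1 lower at +Zn. Os07g0155600, an Nramp-family protein annotated to ethylene signalling, averaged 29.2 ± 5.15 FPKM in ZPR and 11.7 ± 1.92 FPKM in ZPS, the receptor Os04g0169100 37.5 ± 4.71 FPKM in ZPR and 11.9 ± 3.53 FPKM in ZPS, and Os05g0155200 16.5 ± 2.02 FPKM in ZPR and 6.22 ± 1.23 FPKM in ZPS. The kinase Os08g0103000, similar to the negative regulator CTR1, was lower, with 9.43 ± 1.32 FPKM in ZPR and 24.3 ± 1.37 FPKM in ZPS (log2 fold change -1.33 ± 0.19; adjusted p = 4.62e-05). At -Zn 3 were higher and 1 lower, and at resupply 4 and 1, but with median ratio scaling only 1, 0 and 1 stayed higher. Of 27 LEA protein and dehydrin loci, which protect cells in drought, 10 were tested and 3 were higher at each supply (2 at resupply under both other scalings), led by Os03g0843300 at 113 ± 6.19 FPKM in ZPR and 24.6 ± 2.06 FPKM in ZPS. Of 26 pathogenesis-related protein loci, 13 were tested, and 2, 2 and 1 were higher at the 3 supplies, Os06g0716200 among them with 2.58 ± 0.717 FPKM in ZPR and 0.344 ± 0.0539 FPKM in ZPS. The LEA loci Os01g0705200 and Os05g0542500 and the pathogenesis-related loci Os06g0716200 and Os10g0191300, all called higher at +Zn, had passed the filter through roots only. Drawn by wording, the last list also holds Os01g0131600, described as similar to a transcriptional activator, PTI6. No locus of the 4 lists was called by limma in a Zn comparison or an interaction, and per list 0 to 3 loci had an unadjusted p under 0.05. The highest counts were 3 of 9 pathogenesis-related loci for ZRR/ZPR, beside 4.41% of all loci, and 2 of 11 ethylene synthesis loci for ZMR/ZPR, beside 3.56%.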

How the data were processed

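The deposited gene and transcript tables hold FPKM and mean coverage from paired-end reads of poly(A) RNA, with Rice Annotation Project identifiers. The study names a TopHat, Cufflinks and Cuffdiff workflow on IRGSP-1.0. Whether the deposited values came from that workflow was not checked. Alignment allowed several places per read, so near-identical copies are uncertain. How the loci named MSTRG were assembled, and whether the library kit kept strand, are not given in the sources used here. FPKM are not counts, so log2(FPKM + 0.5) was fitted with limma 3.58.1 (trend) in R 4.3.3, by organ for Zn supply and over all 18 libraries for roots against shoots and interactions. Only loci that reached 0.5 FPKM or more in 3 or more libraries were tested, and p-values were adjusted over all of them (Benjamini-Hochberg). The deposited coverage served only to set depth, 3.67 to 7.75 reads per base for each FPKM. The limma fit was tested on simulated data, and the other scripts ran in Python 3.11.15 (pandas 2.3.3).

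The 62 loci and all lists were chosen with earlier results of these data known. The text names the loci of highest mean, 8 on a list of AP2/ERF genes studied in rice, those past the thresholds at +Zn between organs (groups apart), the 3 of smallest p in each Zn comparison or interaction, loci at 0 in a whole group, and up to 4 per pathway list. Other loci named (Os03g0341000, Os03g0702800, Os05g0373900, Os07g0575000, the low DREB loci) were picked after their values were seen. Same-numbered libraries deviated together over tested loci in ZMS/ZPS (correlations 0.49, 0.18 and 0.17), ZRS/ZMS (0.38, 0.24 and 0.13) and ZMR/ZPR (0.42, 0.14 and 0.12), which was read as pairing by replicate number there. Elsewhere 1 pair or more did not pass 0.1. In no comparison did every library correlate best with its same-numbered one, so this pairing is uncertain. The main fits held the group only and ignored it, and the replicate block was run as an alternative. Neither the genome nor protein sequences were used here, and no sequence is shown.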

Additional observations from a re-analysis of the deposited data

How the results depend on the processing

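For 34 named loci and comparisons, 743 alternatives (pseudocount, filter, scaling, zeros as missing, the 6 compared libraries alone, the replicate block, and leaving out each library) kept the side of the threshold in 729, with 7 falling under it, 6 passing it and 1 turning sign, Os05g0361700 in ZMS/ZPS at 0.35 with zeros taken as missing. Most of the 34 were not called in the main fit, so their staying under the threshold says little of how firm the calls are. The 7 falls were all of Os11g0129700 and Os06g0658000 in roots against shoots at +Zn. Of the 30 calls of roots against shoots at the 3 supplies, 23 were kept in all 27 alternatives and 7 were lost in 1 or more. Among these 30 calls a locus that the filter of an alternative left untested was counted as lost, while the 743 leave such alternatives out. Of 328 alternatives of the 14 counts, 308 stayed within 1.5 times. With zeros as missing, 1 locus was called in ZMS/ZPS, 1 in ZRS/ZPS, 2 in ZMR/ZPR and 1 in ZRR/ZPR, 14 were higher in ZMR than in ZMS, 2 were lower in ZRR than in ZRS, and the interactions had 3 calls for -Zn and 2 for resupply. Lower in ZMR than in ZMS were 3 with a pseudocount of 0.1 FPKM, 3 with quantile normalization and 3 with median ratio scaling, and lower in ZRR than in ZRS 3, 2 and 2 in that order. Leaving out a library gave 1 to 2 loci lower in ZMR than in ZMS (2 without ZMR replicate 1 or ZMS replicate 2), 6 to 10 higher there (6 without ZMR replicate 1), 1 to 2 lower in ZRR than in ZRS (2 without ZRR replicate 1 or ZRS replicate 2), 0 in each Zn comparison and 0 to 1 in each interaction (1 without ZMR replicate 2). With the replicate block no call was made in a Zn comparison (0 in each of the 6) or interaction (0), and roots against shoots had 10 higher and 3 lower at +Zn, 11 and 1 at -Zn and 8 and 1 at resupply, so it changed no count by over 1.5 times. Causes were not tested. At the shallowest library 0.5 FPKM stood for 1.83 reads per base, so changes in the 29 loci never above 1 FPKM may have gone undetected at this depth.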

Other observations

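Os06g0194000 had 2 annotated transcripts of 3 exons each, and how its level was divided between them varied between root pools. The transcript ending in -01 had 102.6, 70.8 and 62.5 FPKM in ZPR, 59.7, 124 and 1.55 FPKM in ZMR and 3.17, 62.9 and 43.5 FPKM in ZRR. The transcript ending in -02 had 15.2, 63.9 and 52.2 FPKM in ZPR, 45.1, 11.2 and 134.7 FPKM in ZMR and 98.4, 52.6 and 41.9 FPKM in ZRR. ZMR replicates 2 and 3 were thus assigned almost wholly to different transcripts although the locus held 125.8 and 133 FPKM in them, and ZRR replicate 1 was assigned almost wholly to -02. The uneven root libraries were ZPR replicate 1, ZMR replicates 2 and 3 and ZRR replicate 1. In shoots the division was near to even in every library, with 38.8 to 73.3 FPKM for -01 and 30.0 to 66.3 FPKM for -02. The remaining root libraries were divided about as evenly as the shoots. No test was made of the transcript values.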
